A study of Mus musculus with 9 samples.

Results

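The MHC class II presentation genes followed here were the surface chains H2-Aa, H2-Ab1 and H2-Eb1, the invariant chain Cd74, the peptide exchange chains H2-DMa and H2-DMb1, the protease Ctss and the transactivator Ciita. They were chosen by name, and each was read from the probe set that carries its symbol. Of the 8 genes listed, 7 had a probe set, 1 each, among 22266 genes with a probe set of a single symbol. H2-DMb1 had none, and is described only through its close paralog and neighbour H2-DMb2. RNA came from whole ovaries of mice aged 3 weeks, 1 array per mouse, in 3 groups of 3. The groups were Taf4b-null mice (knockout), Taf4b heterozygous mice and wild-type mice, with no treatment. The strain and the deleted part of Taf4b are not given in the sources used here. Values are RMA intensities, background-corrected and normalized probe brightness on a linear scale. Differences are given as log2 of the ratio of intensities. In whole tissue, fewer cells of a type and less RNA per cell cannot be told apart.

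Class II molecules are pairs of an alpha and a beta chain that show peptides from engulfed or internal material to CD4 T cells. They are assembled with the invariant chain, which blocks the peptide groove. Cathepsin S, encoded by Ctss, cuts the invariant chain down, and the DM pair then exchanges the remaining fragment for a peptide. Dendritic cells, macrophages and B cells carry class II at all times, and many other cells take it on after interferon gamma. Ciita, which binds no DNA itself, switches these genes on through factors held at conserved X and Y boxes in their promoters. The ovary holds resident macrophages, which clear dying follicles and old corpora lutea. Taf4b is a subunit of the general transcription factor TFIID that is rich in the gonads.

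The promoters were read for core letters of the boxes that Ciita acts through. RefSeq windows of assembly GRCm38.p6, from 250 bases before to 50 bases after the start, were at hand for 5 of the 8 genes and for H2-DMb2. They were searched on both strands for an X box core, ACNGATG, and a Y box core, GATTGG, and did not overlap where both were found. Capitals mark the matches, and the sequences run 5′ to 3′ on the gene's own strand. H2-Eb1, H2-DMb1 and H2-DMb2 are shown because each holds an X core followed within 40 bases by a Y core on 1 strand. H2-Aa is shown because it was high in the same arrays as H2-Eb1, and Ctss because it had the largest difference between genotypes.
H2-Eb1, chr17:34305617-34305916, plus strand: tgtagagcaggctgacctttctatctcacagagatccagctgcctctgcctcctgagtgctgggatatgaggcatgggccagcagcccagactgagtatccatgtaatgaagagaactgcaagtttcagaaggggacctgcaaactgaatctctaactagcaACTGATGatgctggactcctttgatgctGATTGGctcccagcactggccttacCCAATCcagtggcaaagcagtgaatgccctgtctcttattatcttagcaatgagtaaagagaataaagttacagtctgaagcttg
H2-DMb1, chr17:34152941-34153240, plus strand: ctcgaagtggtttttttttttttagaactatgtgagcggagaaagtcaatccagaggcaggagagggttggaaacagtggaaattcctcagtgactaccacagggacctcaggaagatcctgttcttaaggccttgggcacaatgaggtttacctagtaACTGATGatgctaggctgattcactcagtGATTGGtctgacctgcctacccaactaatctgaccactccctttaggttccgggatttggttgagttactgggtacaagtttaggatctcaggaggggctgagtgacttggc
H2-DMb2, chr17:34144999-34145298, plus strand: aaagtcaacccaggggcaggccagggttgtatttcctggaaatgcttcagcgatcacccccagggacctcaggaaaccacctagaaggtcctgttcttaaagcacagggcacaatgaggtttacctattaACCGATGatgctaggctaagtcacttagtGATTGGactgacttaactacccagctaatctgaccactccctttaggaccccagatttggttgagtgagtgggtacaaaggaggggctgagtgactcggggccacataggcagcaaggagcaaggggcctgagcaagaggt
H2-Aa, chr17:34287774-34288073, minus strand: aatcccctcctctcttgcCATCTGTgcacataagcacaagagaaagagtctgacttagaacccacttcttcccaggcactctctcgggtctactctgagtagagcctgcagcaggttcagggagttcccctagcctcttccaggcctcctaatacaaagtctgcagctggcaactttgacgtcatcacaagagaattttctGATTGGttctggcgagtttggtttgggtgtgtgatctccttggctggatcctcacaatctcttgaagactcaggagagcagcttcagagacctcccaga
Ctss, chr3:95526536-95526835, plus strand: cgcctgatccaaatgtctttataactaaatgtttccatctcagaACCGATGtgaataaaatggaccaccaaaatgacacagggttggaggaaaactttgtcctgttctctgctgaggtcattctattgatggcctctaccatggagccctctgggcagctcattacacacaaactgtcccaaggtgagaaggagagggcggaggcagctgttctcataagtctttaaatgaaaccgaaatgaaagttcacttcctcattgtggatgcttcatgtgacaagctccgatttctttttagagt

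In H2-Eb1 the X core began 88 bases before the start and the Y core 28 bases further on. H2-DMb1 and H2-DMb2 had the same order, with 29 bases between the starts of the cores. An X core followed by a Y core within 40 bases on 1 strand was found in 33 of 32851 mouse windows (0.1%), and 4 of the 33 belong to class II genes. The 4 are H2-Eb1, H2-DMb1, H2-DMb2 and H2-Eb2. In H2-Aa the Y core stood 49 bases before the start, and the only X core letters lay far from it on the other strand. The Ctss window held an X core and no Y core. For H2-DMa, not shown, 1 window held a Y core and no X core, and another held neither. Both H2-DMa windows, and that of H2-DMb2, lie inside the gene spans given below and not at their first base. A window at the first base of the H2-DMa span was not at hand, so its promoter there was not searched. The single cores are common, at 9.85% of windows for X and 16.1% for Y, so a lone match is weak information. A match is a description of letters, not a bound site. A box spelled with other letters would be missed, so a window without a match may still hold one. The windows of H2-DMb1 and H2-DMb2 were identical at 208 of 247 aligned bases (84.2%). Whether the probes named for one of these paralogs also bind transcripts of the other was not tested, so the values of H2-DMb2 are uncertain in that respect. In the same assembly the class II region of chromosome 17 holds H2-DMa (34119693 to 34139101), H2-DMb2 (34143229 to 34151553), H2-DMb1 (34153191 to 34160229), H2-Ab1 (34263227 to 34269418), H2-Aa (34282744 to 34287823) and H2-Eb1 (34305867 to 34316674). Ctss lies on chromosome 3 (95526786 to 95556405) and Ciita on chromosome 16 (10480014 to 10531064).

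The targeted gene was read first as a check of the labels. Taf4b stood at 332.0, 625.6 and 402.8 in the 3 arrays labelled knockout, at 455.8, 594.8 and 574.3 in heterozygotes, and at 493.6, 634.9 and 723.4 in wild types. The array labelled knockout 2 thus lay inside the wild-type range, while the other 2 labelled knockouts lay below it, as did heterozygote 1. Labelled knockouts minus wild types gave a log2 difference of -0.48, with an exact two-sided permutation p of 0.2 where 0.1 is the smallest that 3 against 3 arrays allow. Whether the probe set lies inside the deleted part is not given, so the array is called "labelled knockout 2" throughout. The array heterozygote 1 also stood apart, with correlations of 0.984 to 0.988 to the other arrays over all probe sets, where every other array reached at least 0.997 with some other. Median intensities were alike, between 123.7 and 126.89. Each main result below is given with and without those 2 arrays.

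The surface chains were highest in 2 of the 3 labelled knockouts. H2-Ab1, the beta chain of the A molecule, stood at 383.2, 230.3 and 394.0 in labelled knockouts, at 258.4, 150.6 and 173.2 in heterozygotes, and at 203.5, 205.7 and 215.5 in wild types. All 3 labelled knockouts lay above all 3 wild types, labelled knockout 2 by little, while heterozygote 1 lay above labelled knockout 2. H2-Aa, the alpha chain of the same molecule, stood at 253.0, 140.1 and 304.7 in labelled knockouts, at 200.4, 116.8 and 122.8 in heterozygotes, and at 173.7, 155.0 and 169.9 in wild types. Here labelled knockout 2 lay below every wild type. H2-Eb1, the beta chain of the E molecule, stood at 251.1, 203.7 and 272.1 in labelled knockouts, at 236.2, 140.6 and 163.3 in heterozygotes, and at 203.7, 191.1 and 198.7 in wild types. Labelled knockout 2 matched the highest wild type.

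The wild types were close together for these chains, and the other two genotypes were not. H2-Ab1 averaged 335.9 ± 91.5 in labelled knockouts, 194.0 ± 56.8 in heterozygotes and 208.2 ± 6.3 in wild types (SD, n = 3 each). H2-Aa averaged 232.6 ± 84.2 in labelled knockouts, 146.7 ± 46.6 in heterozygotes and 166.2 ± 9.9 in wild types. H2-Eb1 averaged 242.3 ± 35.0 in labelled knockouts, 180.0 ± 50 in heterozygotes and 197.9 ± 6.4 in wild types. The SD of labelled knockouts and of heterozygotes was several times that of wild types for each of the 3 chains.

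Cd74, the invariant chain, had the same order of arrays as H2-Aa. It stood at 224.5, 134.8 and 240.8 in labelled knockouts, at 178.7, 108.1 and 111.3 in heterozygotes, and at 145.6, 138.3 and 142.9 in wild types. Labelled knockouts 1 and 3 were the 2 highest arrays, heterozygote 1 came next, and labelled knockout 2 was just below all wild types. Cd74 lies on chromosome 18, at 60803849 to 60812652. Taf4b lies far from it on the same chromosome, at 14783201 to 14960424, while the surface chains lie on chromosome 17.

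Ctss, which encodes the protease that trims the invariant chain, had the largest difference between labelled knockouts and wild types of the 7 genes with all 9 arrays. It stood at 589.0, 320.4 and 794.6 in labelled knockouts, at 301.5, 217.0 and 264.9 in heterozygotes, and at 300.3, 246.3 and 270.9 in wild types. All 3 labelled knockouts lay above the other 6 arrays, with labelled knockout 2 only just above heterozygote 1. How many of all probe sets have this order was not counted, here or for the genes given with it below. Unlike the surface chains, Ctss was no higher in heterozygote 1 than in wild type 1 beyond a trace.

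H2-DMa, the alpha chain of the exchange pair, was dim and nearly level. It stood at 46.9, 45.6 and 45.6 in labelled knockouts, at 47.0, 35.6 and 45.6 in heterozygotes, and at 45.6, 49.3 and 45.6 in wild types, brighter than 28.7% of probe sets. RMA returned the same value on several arrays, so its 9 arrays held 6 distinct values and their order says little. The probe set named for H2-DMb2, a beta chain of the pair, stood at 92.5, 65.6 and 72.4 in labelled knockouts, at 63.2, 51.0 and 55.5 in heterozygotes, and at 62.8, 63.3 and 59.7 in wild types. All 3 labelled knockouts were above the other 6 arrays, with a log2 difference of 0.30 from wild types (SE 0.13, limma adjusted p = 0.45), which did not pass.

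Ciita, the master switch of the pathway, did not share the pattern of the surface chains and Cd74. It stood at 58.8, 58.9 and 56.9 in labelled knockouts, at 70.8, 58.8 and 61.6 in heterozygotes, and at 53.7, 56.2 and 58.0 in wild types. Heterozygote 1 was highest, and labelled knockouts overlapped wild types. Its mean level was brighter than 35.1% of probe sets, which is a rank of signal and not of transcript number. At so dim a signal, the lack of the pattern says little about whether the Ciita transcript varied.

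**Figure D1:**
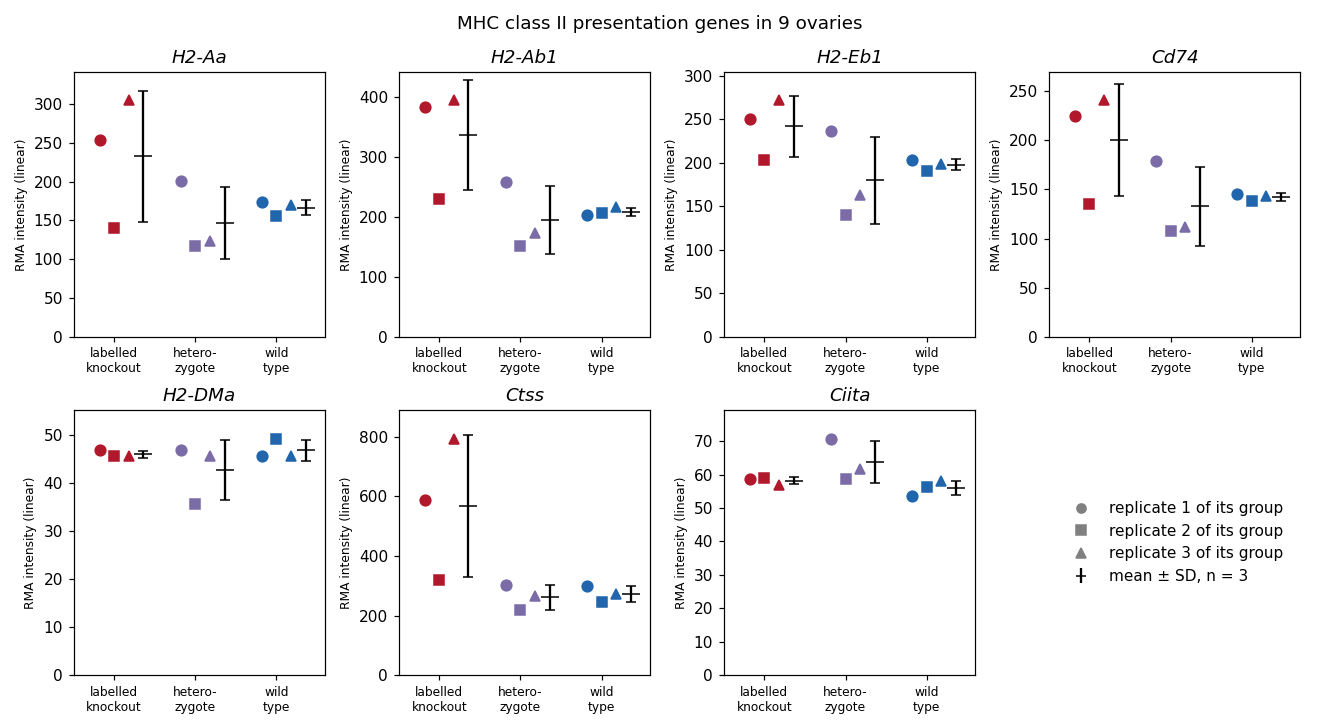
RMA intensity (linear axis from 0) of the 7 class II presentation genes in each of 9 ovaries, with labelled knockouts left, heterozygotes next and wild types right. Points are arrays, shapes give the replicate number, and bars show the mean ± SD (n = 3). Labelled knockouts 1 and 3 are the 2 highest arrays for H2-Aa, H2-Ab1, H2-Eb1, Cd74 and Ctss, while H2-DMa stays between 35.6 and 49.3.

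Against wild types, labelled knockouts had higher means for 6 of the 7 genes, and none passed the test. The test was limma on log2 intensities over all 9 arrays and 25100 probe sets, with Benjamini-Hochberg adjustment. It called 0 of 7 genes at an adjusted p under 0.05, where 0.0757% of all probe sets were called. Without adjustment, p was under 0.05 for 2 of 7, both higher, H2-Ab1 and Ctss, where 4.89% of probe sets were. An equal-variance test on linear values also called 0 of 7. The same 2 genes had all 3 labelled knockouts above all wild types, which 6.51% of probe sets did. The median difference of the 7 genes was 0.41, against -0.004 over all probe sets tested, and 48.3% of probe sets had a difference above 0. These shares over all probe sets also stand beside the counts of the gene lists set against wild types below.

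Single genes show how wide the error was. Ctss differed by 0.97 (SE 0.29, 95% interval 0.32 to 1.62, limma adjusted p = 0.274), a fold of 1.96. H2-Ab1 differed by 0.65 (SE 0.24, 95% interval 0.11 to 1.19, limma adjusted p = 0.377). Cd74 differed by 0.45 with an interval of -0.11 to 1.0, H2-Aa by 0.41 with -0.24 to 1.07, and H2-Eb1 by 0.28 with -0.12 to 0.69. H2-DMa and Ciita stayed close to no difference, at -0.03 and 0.06, with intervals of -0.25 to 0.2 and -0.11 to 0.22. The authors' deposited table runs the other way, as wild type over knockout, and gives ratios of 0.4798 for Ctss and 0.62 for H2-Ab1.

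Without labelled knockout 2 and heterozygote 1, H2-Ab1 and Cd74 passed the test against wild types. H2-Ab1 then differed by 0.90 and Cd74 by 0.71, each with a limma adjusted p of 0.0153, where 0.0239% of probe sets were called higher. H2-Aa at 0.74 and Ctss at 1.33 missed it, with limma adjusted p of 0.0606 and 0.0537. Leaving out labelled knockout 2 alone gave the same differences and 0 calls, where 0.00398% of probe sets were called higher, with a limma adjusted p of 0.19 for Cd74 and 0.124 for H2-Ab1. Both arrays were doubted for other reasons than class II levels. Yet labelled knockout 2 was the lowest knockout and heterozygote 1 the highest heterozygote for H2-Aa, H2-Ab1, H2-Eb1, Cd74 and Ctss, so their removal narrows the spread of these genes.

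Against heterozygotes, labelled knockouts also had higher means for 6 of the 7 genes, with a median difference of 0.59 against -0.013 over all probe sets, of which 45.5% were above 0. limma again called 0 of 7, where 0.0239% of probe sets were called. Without adjustment, p was under 0.05 for 4 of 7, all higher, namely H2-Ab1, H2-Eb1, Cd74 and Ctss, where 7.71% of probe sets were. For Ctss alone did all 3 labelled knockouts lie above all heterozygotes, as in 8.08% of probe sets. Ctss differed by 1.04 (limma adjusted p = 0.2) and H2-Ab1 by 0.79 (limma adjusted p = 0.221), while Ciita differed by -0.13 (limma adjusted p = 0.447). Knockouts are set against both other genotypes here, so the 2 comparisons share the knockout arrays.

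Of the 3 comparisons, this one gained the most calls when the 2 doubted arrays were left out. Without both, 5 of the 7 genes were higher and passed, where 1.08% of probe sets were called higher. They were Ctss at 1.51 (limma adjusted p = 0.0356), H2-Ab1 at 1.27 (0.0165), H2-Aa at 1.21 (0.0226), Cd74 at 1.08 (0.0165) and H2-Eb1 at 0.79 (0.0347). H2-DMa and Ciita did not pass, at 0.20 and -0.06. Without labelled knockout 2 alone, Ctss passed at 1.40 (limma adjusted p = 0.0308), and 0.729% of probe sets were called higher.

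Heterozygotes were lower than wild types in mean for 6 of the 7 genes, with a median difference of -0.14 against 0.003 over all probe sets, of which 48.7% were below 0. No gene passed in limma, where 0.0% of probe sets were called. Without adjustment, p was under 0.05 for Ciita alone, where 2.71% of probe sets were higher at that level. Ciita was higher by 0.18 (SE 0.07, 95% interval 0.02 to 0.35, limma adjusted p = 0.815), and all 3 heterozygotes lay above all wild types, as in 4.13% of probe sets. The heterozygotes were not alike. Heterozygote 1 was above all wild types for 6 of the 7 genes, and heterozygote 2 was the lowest of the 9 arrays for 6 of 7. For Ctss, heterozygote 1 exceeded the wild types by a trace, at 301.5 against at most 300.3. Heterozygotes 2 and 3 were below every wild type for H2-Aa, H2-Ab1, H2-Eb1 and Cd74. The shares of all probe sets with these orders were not counted, so they describe the 7 genes only. Without heterozygote 1 the median difference was -0.37, still with 0 calls, and Ciita differed by 0.11 (limma adjusted p = 0.814). Unadjusted p in limma was then under 0.05 for 1 of 7, which was lower. Without both doubted arrays limma also called 0, and unadjusted p was under 0.05 for 4 of 7, all lower, where 5.22% of probe sets were. They were H2-Aa at -0.47, H2-Eb1 at -0.38 and H2-Ab1 and Cd74 at -0.37 each, with limma adjusted p of 0.384 to 0.431. Labelled knockout 2 is not in this comparison, so leaving it out changed only the spread shared by the 3 genotypes, not the differences. The step from 1 to 4 genes is thus no added evidence that heterozygotes were lower.

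**Figure D2:**
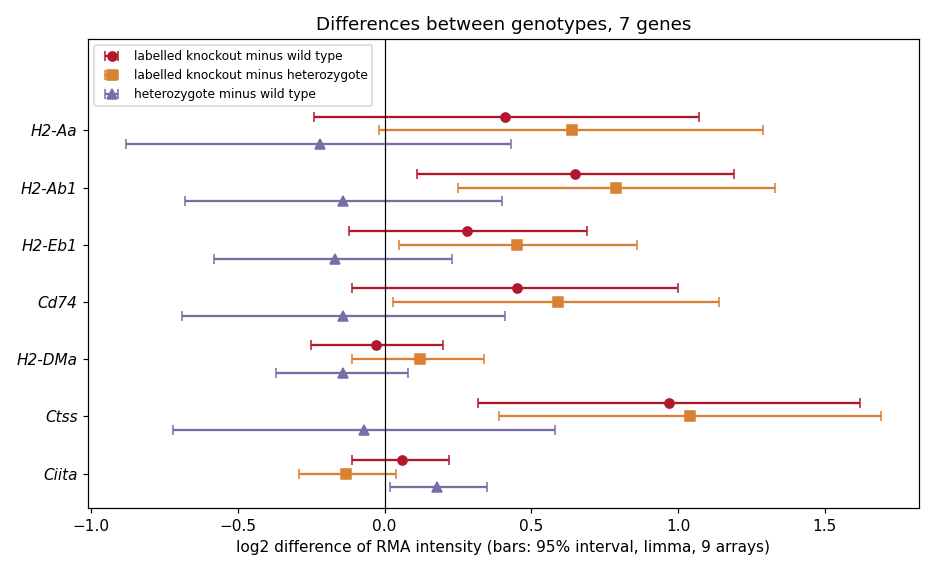
Log2 difference of RMA intensity for the 7 genes in the 3 comparisons, with 95% intervals from limma over 9 arrays. The intervals of Ctss and H2-Ab1 lie above 0 for labelled knockouts against wild types, at 0.32 to 1.62 and 0.11 to 1.19, and none of the differences passed after adjustment.

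**Figure D3:**
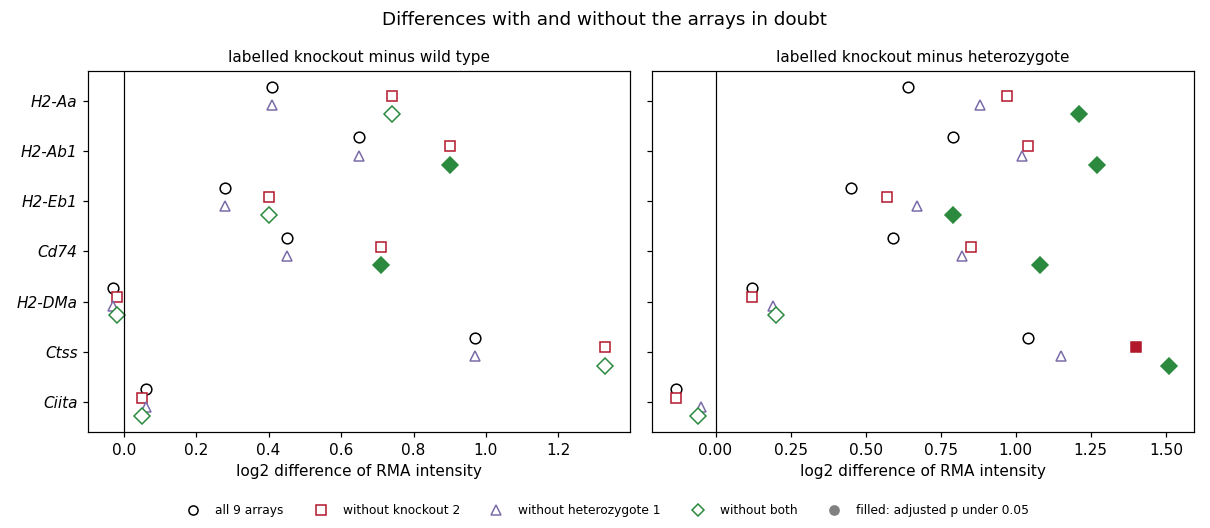
Log2 difference of RMA intensity for labelled knockouts minus wild types (left) and minus heterozygotes (right), with all 9 arrays and without the arrays labelled knockout 2 and heterozygote 1. Filled symbols have an adjusted p under 0.05. With both arrays left out, 2 genes are filled on the left and 5 on the right, and with all arrays none.

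The genes that varied together were the chains, Cd74 and Ctss. Over the 9 arrays each was set against the mean of the other 6 genes on the log2 scale, as a description. Pearson's r was 0.99 for H2-Ab1, 0.98 for Cd74, 0.96 for H2-Aa, 0.95 for H2-Eb1 and 0.89 for Ctss. It was 0.45 for H2-DMa and -0.01 for Ciita. The arrays share genotype and normalization, so these values describe a common pattern and not a test of it.

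Other genes with the same profile were sought by Pearson's r with the mean of the 7 genes, among 13484 probe sets. The most alike was Laptm5, a lysosomal membrane protein of blood cells, with r = 0.969 over 9 arrays. It stood at 307.1, 240.9 and 391.4 in labelled knockouts, at 243.5, 168.1 and 198.8 in heterozygotes, and at 241.6, 224.5 and 220.5 in wild types. Next came Reep1 (r = 0.965), Igtp (0.962), an interferon-induced GTPase, Peci, now Eci2 (0.958), Rpp25, Itm2a and Agpat9, now Gpat3 (0.956 each), and Dcn (0.955), the matrix proteoglycan decorin. Each had its 2 highest arrays in labelled knockouts 1 and 3. They were picked for this profile, so that order is no further result.

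The remaining chains of the class II family were dim and mixed. Of 5 other chains and accessory molecules, 2 were higher and 3 lower in labelled knockouts than in wild types, limma called 0, and the median difference was -0.02. Unadjusted p was under 0.05 for 1 higher gene, H2-DMb2, and 1 lower gene, H2-Oa. H2-Oa and H2-Ob, whose products restrain the exchange pair, differed by -0.25 and -0.03. H2-Eb2 differed by -0.02, and the E alpha chain, listed as the pseudogene H2-Ea-ps, stood between 14.5 and 20.0 on all arrays. Among these 5, H2-DMb2 alone had all 3 labelled knockouts above all wild types.

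Enzymes that cut proteins into peptides for class II were bright in every ovary, and 6 of 8 were higher in labelled knockouts than in wild types. limma called 0, with 3 under an unadjusted p of 0.05 and a median difference of 0.13. Ctsb, the broad lysosomal protease cathepsin B, stood at 2084.7, 2096.4 and 2006.0 in labelled knockouts, at 1626.8, 1456.6 and 1557.5 in heterozygotes, and at 1754.2, 1569.2 and 1677.7 in wild types. The labelled knockouts were all above the rest and close together, labelled knockout 2 included, with a difference of 0.31 from wild types (limma adjusted p = 0.132). Ctsz, cathepsin Z, and Ctsd, cathepsin D, differed by 0.23 and 0.21, with limma adjusted p of 0.25 and 0.252. Ctsl, cathepsin L, which trims the invariant chain in thymic epithelium, differed by -0.19 and was not called. The others were Lgmn (0.16), Ifi30 (0.10), Cst3 (0.10) and Ctsh (-0.03).

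The factors that Ciita works through showed no shared direction. Of 7 genes for the RFX, NF-Y and CREB proteins, 3 were higher and 4 lower in labelled knockouts than in wild types, with 0 calls in limma, a median of -0.06 and 2 lower genes under an unadjusted p of 0.05, as 5.77% of probe sets were. Rfx5, the subunit that contacts the X box, differed by 0.04, and Nfya, a subunit that contacts the Y box, by -0.22 (limma adjusted p = 0.33). The others were Nfyc (-0.18), Rfxap (-0.08), Nfyb (-0.06), Creb1 (0.01) and Rfxank (0.08). Of 5 costimulatory and class II turnover genes, 4 were higher with 0 calls in limma and 1 under an unadjusted p of 0.05. That gene, Cd86, a costimulator of T cells, differed by 0.24 at intensities of 23.3 to 31.8. The others were Marchf1 (0.11), Marchf8 (0.08), Cd40 (0.03) and Cd80 (-0.04).

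Genes of the interferon gamma pathway were split, with 6 of 12 higher in labelled knockouts than in wild types, 0 calls in limma, 2 higher genes under an unadjusted p of 0.05 and a median of 0.06. Ifng stayed between 27.5 and 31.7 on all arrays, brighter than 19.4% of probe sets. Gbp2, a GTPase induced by interferon, stood at 359.1, 314.8 and 327.3 in labelled knockouts, at 256.7, 254.4 and 218.3 in heterozygotes, and at 256.7, 190.3 and 216.3 in wild types. All 3 labelled knockouts were above the other 6 arrays, with a difference of 0.60 (limma adjusted p = 0.123). The chemokine genes Cxcl10 and Cxcl9, which interferon gamma induces, differed by 0.55 and 0.26 and were not called.

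The class I pathway, which loads peptides for CD8 T cells, held the 1 call among the antigen presentation genes. Of 14 genes, 9 were higher in labelled knockouts than in wild types, with a median of 0.15. limma called 1, where 0.0757% of probe sets were called, and 5 had an unadjusted p under 0.05, all higher. Tapbp, the tapasin that holds class I at the peptide transporter, stood at 1301.6, 1280.0 and 1235.0 in labelled knockouts, at 963.7, 987.4 and 985.1 in heterozygotes, and at 1017.1, 952.0 and 954.4 in wild types. It rose by 0.38 (SE 0.05, limma adjusted p = 0.0466), with labelled knockout 2 as high as the other two. Without labelled knockout 2 the difference was also 0.38, with a limma adjusted p of 0.0628. The difference from heterozygotes was 0.38 as well, with a limma adjusted p of 0.0601. Psmb8, a subunit of the immunoproteasome, and B2m, the light chain of class I, differed from wild types by 0.36 and 0.24 and were not called.

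Markers of the cells that carry class II did not all move with these genes. Over all probe sets, 48.3% were higher in labelled knockouts than in wild types, and 4.89% were higher with an unadjusted limma p under 0.05. All 14 macrophage markers were higher in labelled knockouts than in wild types, limma called 0, 8 had an unadjusted p under 0.05, and the median was 0.31. Their summed intensity was 2323 to 3081 in labelled knockouts, 1828 to 2007 in heterozygotes and 1922 to 2114 in wild types. Adgre1, which encodes the macrophage antigen F4/80, stood at 116.7, 100.8 and 122.9 in labelled knockouts, at 87.9, 81.4 and 78.5 in heterozygotes, and at 83.5, 76.4 and 87.9 in wild types. Lyz2, the lysozyme of myeloid cells, stood at 475.6, 382.8 and 712.2 in labelled knockouts, at 246.8, 237.6 and 270.5 in heterozygotes, and at 257.3, 258.7 and 261.8 in wild types. For both genes all labelled knockouts were above the other 6 arrays, and C1qa, a complement gene of macrophages, differed by 0.39. All 7 pan-leukocyte markers were likewise higher, with 0 calls in limma, 3 under an unadjusted p of 0.05 and a median of 0.40. They summed to 759 to 1215 in labelled knockouts, 615 to 749 in heterozygotes and 708 to 744 in wild types. Cd53, Laptm5 and Itgb2 had the smallest p of that list, at 0.58, 0.43 and 0.42. The part of these markers in the class II values was not tested.

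Markers of dendritic cells and of lymphocytes were mixed. Of 9 dendritic cell markers, 5 were higher in labelled knockouts than in wild types with a median of 0.04, summed to 654 to 716 in labelled knockouts, 673 to 699 in heterozygotes and 636 to 694 in wild types. Of 8 B cell markers, 2 were higher, with a median of -0.04 and sums of 333 to 343 in labelled knockouts, 368 to 392 in heterozygotes and 395 to 401 in wild types. Without Ms4a1 the sums of the other 7 were 249 to 272 in labelled knockouts, 257 to 276 in heterozygotes and 252 to 268 in wild types, so the groups overlapped and the gap came from that gene. Ms4a1, which encodes the B cell antigen CD20, stood at 66.4, 71.1 and 93.7 in labelled knockouts and at 133.2, 133.9 and 142.9 in wild types, a difference of -0.84 that was not called (limma adjusted p = 0.0635). Next by p was Cd79b (0.13). The B cell list gave 0 calls in limma, with Ms4a1 alone under an unadjusted p of 0.05, and all its 8 genes were dimmer than the median probe set. Of 8 T and NK cell markers, 3 were higher, and of 8 neutrophil and mast cell markers, 6 were. limma called 0 of the dendritic, T and NK, and neutrophil and mast cell markers, with 0, 1 and 0 under an unadjusted p of 0.05. Dimmer than the median probe set were 8 of 9, 8 of 8 and 7 of 8 of them, so their small differences say little about these cells. The same held for 6 of 7 pan-leukocyte and 6 of 14 macrophage markers, which were higher. The smallest p were those of Cd209a (-0.11), Batf3 (0.10) and Siglech (-0.06) for dendritic cells, Cd3d (-0.14), Cd2 (-0.13) and Cd3g (0.27) for T and NK cells, and Ly6g (0.12), Cma1 (0.12) and Kit (-0.24) for neutrophils and mast cells. Kit was brighter than 87.8% of probe sets and alone in its list above the median probe set. Which cells its signal came from was not tested.

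The class II genes and the macrophage markers were highest in the same 2 arrays and differed in others. The score is the mean log2 deviation of a list from its own mean over the 9 arrays. The class II score was 0.43, -0.08 and 0.55 in labelled knockouts, 0.14, -0.46 and -0.28 in heterozygotes, and -0.08, -0.14 and -0.08 in wild types. The macrophage score was 0.27, 0.08 and 0.41 in labelled knockouts, -0.12, -0.24 and -0.11 in heterozygotes, and -0.02, -0.14 and -0.12 in wild types. Labelled knockouts 1 and 3 were highest on both, and heterozygote 2 lowest on both. Heterozygote 1 was above all wild types on the class II score, and on the macrophage score it was not. Labelled knockout 2 was the other way round, above all wild types for macrophage markers and level with them for class II.

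Markers of tissue other than leukocytes also had higher sums in labelled knockouts than in the other genotypes. Fat cell markers summed to 2785 to 3234 in labelled knockouts, 977 to 1753 in heterozygotes and 2051 to 2293 in wild types, with all 5 higher in labelled knockouts than in wild types. Surface epithelium markers summed to 2686 to 3002 in labelled knockouts, 2016 to 2091 in heterozygotes and 1689 to 2156 in wild types, again with 5 of 5 higher. Oviduct markers, 4 of 4 higher, summed to 700 to 930 in labelled knockouts, 378 to 581 in heterozygotes and 407 to 534 in wild types. limma called 0 genes of these 3 lists against wild types, with 2 fat cell, 5 surface epithelium and 2 oviduct markers under an unadjusted p of 0.05, all higher. The 3 genes of each list with the smallest p were Car3 (0.68), Plin1 (0.47) and Adipoq (0.33) for fat cells, Msln (0.46), Upk1b (0.78) and Krt19 (0.67) for surface epithelium, and Ovgp1 (2.03), Tppp3 (0.42) and Foxj1 (0.12) for oviduct, as log2 differences. Their part in the class II values was not tested.

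**Figure D4:**
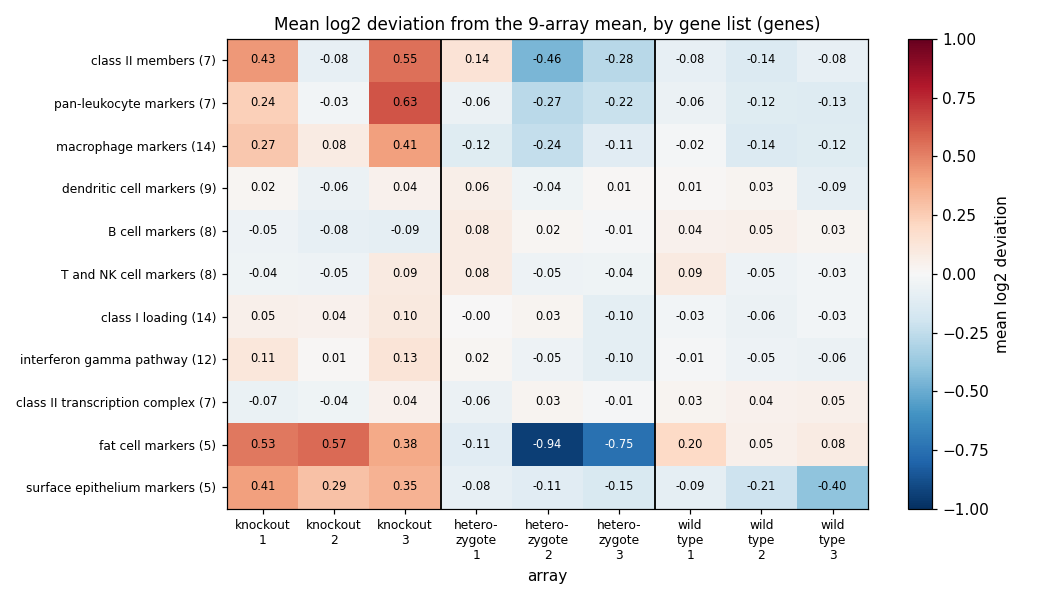
Mean log2 deviation from the 9-array mean for the class II genes and for 10 other gene lists (rows, number of genes in brackets) on each array (columns), labelled knockouts left, heterozygotes next, wild types right. The class II row reaches 0.43 and 0.55 in labelled knockouts 1 and 3 but is -0.08 in labelled knockout 2, while the fat cell and surface epithelium rows are above 0 in all 3 labelled knockouts.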

How the data were processed

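Per the series' design text, the authors labelled 300 ng of RNA per array and normalized it by RMA-Sketch (Expression Console 1.1). The range of the deposited intensity table shows a linear scale. The log2 of each deposited intensity was taken here. The authors' tables of comparisons hold, per the file headers, a ratio (fold change) and a p-value for each probe set, with 25, 32 and 24 cells lacking a p-value. Their intensities equal the value table.

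Probe sets with a gene symbol (25100 of 28266) were tested with limma 3.58.1 in R 4.3.3, in 1 model of 3 genotypes over 9 arrays, two-sided, with Benjamini-Hochberg adjustment over all of them. The procedure was tested on simulated data. The members and gene lists were chosen with earlier results of these data known. The text names all members, Taf4b, every gene of the 4 class II lists, the 3 with the smallest p against wild types in each other list, and the 8 genes most like the members. Ifng was named besides these, after its values were seen. A gene that the rule would name is not reported here. Symbols turned into dates (26) were restored from the descriptions, and 18767 probe sets were matched to RefSeq by accession. Alternatives were each array left out, a replicate block, other normalization, filters, variance models and array weights. Precision is limited by 3 arrays per genotype, whose replicates are separate mice per the series' design text. Same-numbered arrays of different genotypes had correlated deviations from -0.193 to 0.334, so numbers were not taken to pair arrays.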

Additional observations from a re-analysis of the deposited data

How the results depend on the processing

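Of 378 values of the 7 genes under other settings, 365 kept their direction and side of the threshold, 9 passed it newly and 4 reversed. Without both labelled knockout 2 and heterozygote 1, the genes called numbered 2 for labelled knockouts minus wild types and 5 for labelled knockouts minus heterozygotes, and the medians were 0.71, 1.08 and, for heterozygotes minus wild types, -0.37. Array weights gave 1 call against heterozygotes, H2-Ab1 (1.07, limma adjusted p = 0.0487), where 92 of 25100 probe sets were called higher. Leaving out 1 array at a time gave 0 genes called against wild types for either genotype and 0 to 1 for labelled knockouts minus heterozygotes, the 1 being Ctss without labelled knockout 2. The medians then ranged from 0.19 to 0.71 for labelled knockouts minus wild types, from 0.41 to 0.85 minus heterozygotes and from -0.37 to -0.01 for heterozygotes minus wild types. The 4 reversals ended near 0, each with its range over single arrays left out. H2-DMa against wild types was 0.01 without wild-type replicate 2 (range -0.04 to 0.01) and against heterozygotes -0.01 without heterozygote replicate 2 (range -0.01 to 0.19). For heterozygotes minus wild types, without heterozygote replicate 2, H2-Ab1 was 0.02 (range -0.37 to 0.02) and Ctss 0.06 (range -0.18 to 0.06). The cause was not tested. The replicate block left 0 genes called and the medians at 0.41, -0.14 and 0.59, and over all probe sets it called 3 against 19 without the block for labelled knockouts minus wild types. Over all probe sets that count was 0 with the 6 arrays alone, 48 without the dimmest 25%, 34 with trend and robust variance, 199 with array weights and 4 with an equal-variance test, so calls over all genes depend on the setting. Against heterozygotes it was 6, and 261 without labelled knockout 2. Averaging probe sets gave no other value, since each gene had 1. With 3 arrays a genotype and an array that stands apart in 2 of them, small differences cannot be resolved.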
